A study of Homo sapiens with 8 samples.

Results

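The genes described here make, regulate and move cholesterol and fatty acids. They were chosen by name: 36 genes of the mevalonate and sterol pathway, of sterol regulatory element binding protein (SREBP) control, of fatty acid synthesis and desaturation, and of sterol transport. A feature for 35 of the 36 was found among the 23786 features of the arrays, each by its Entrez Gene number. No feature carried the number of HSD17B7, which is not analysed here. The study asked which genes depend on p300, a histone acetyltransferase and transcriptional coactivator encoded by EP300, in human melanoma. Affymetrix Human Gene 2.0 ST arrays measured total RNA of 4 groups with 2 arrays each. The groups were WM983B cells with shp300 (a short hairpin RNA against p300), WM983B cells with scrambled control shRNA, SK-Mel5 cells with shp300, and SK-Mel5 cells with scrambled control shRNA. WM983B and SK-Mel5 are established human melanoma lines. Both arms of both lines were transduced with a pLKO1 lentivirus in the presence of polybrene. They were selected with puromycin at 1.5 μg/mL beginning 48 h later, and grown in medium with 10% fetal bovine serum. The labels use a single name for the hairpin and leave unsaid whether replicate arrays were separate cultures. Each p-value therefore reflects the spread between arrays alone, part of which may be technical, and 2 arrays per group limit the precision.

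Cells build cholesterol from acetyl-CoA through mevalonate, farnesyl diphosphate and squalene. When sterols in the endoplasmic reticulum run low, SCAP carries SREBP proteins to the Golgi, where they are cut and released to activate genes of this pathway and of fatty acid synthesis. When sterols are plentiful, the INSIG proteins hold SCAP back. Export of surplus cholesterol through ABCA1 and ABCG1 is under the control of oxysterol-sensing LXR receptors. Proliferating tumour cells commonly draw on this pathway for membranes and for prenyl groups that anchor signalling proteins.

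The array values were log2 expression values, and each line was apparently normalized on its own. The median feature lay at 4.26 in WM983B and 2.99 in SK-Mel5, while array medians within a line spanned 0.0170 and 0.0499. Changes are therefore given within each line as shp300 minus scrambled on the log2 scale. A gene is said to have risen or fallen, or to be called, when limma's adjusted p over all features was under 0.05. EP300 RNA was 6.92 and 7.26 in WM983B labelled shp300, against 7.10 and 7.22 in WM983B scrambled (change -0.07, 95% interval -0.43 to 0.29, adjusted p = 0.832). In SK-Mel5 it was 5.97 and 6.10 with shp300, against 7.19 and 6.90 with scrambled shRNA (change -1.01, adjusted p = 0.00377). The targeted RNA was thus lower in SK-Mel5, and not measurably lower in the WM983B arrays labelled shp300. All 6 measured melanocyte lineage markers lay above the median feature in every group. Among them MLANA fell in both lines (changes of -3.41 in WM983B and -1.47 in SK-Mel5), and MITF and PMEL fell in WM983B (changes -1.71 and -0.42). TYR rose in SK-Mel5 (change 0.64), and the remaining markers were not called in either line. Markers of other cell types were not all low. Among the 6 fibroblast markers, 3 lay below the median feature in each group, while LUM stood at percentiles 97.4 to 99.0. The leukocyte marker LYZ stood at 77.9 in WM983B shp300 and 59.0 in WM983B scrambled. All measured keratinocyte and hepatocyte markers lay below the median feature in every group. Of 28 markers of fibroblasts, keratinocytes, leukocytes, endothelium and hepatocytes, 5 rose and none fell in WM983B (10.9% and 11.6% of all features). In SK-Mel5 1 rose and 1 fell (7.57% and 8.8%). Those were DCN in both lines, LYZ, SERPINA1, FGB and KRT1 in WM983B, and LUM, the fall in SK-Mel5. The part of any of these shifts in the results below was not tested. In bulk RNA, fewer cells of one type and less RNA per cell cannot be told apart.

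In SK-Mel5 more of the genes fell than rose with shp300. Of the 35 genes, 16 fell and 1 rose, against 8.8% of all features that fell and 7.57% that rose. In WM983B labelled shp300, 3 fell and 5 rose, against 11.6% of all features that fell and 10.9% that rose. Together these 8 calls in WM983B lay near the share of all features called there (22.5%). The median change was -0.40 in SK-Mel5 and 0.00 in WM983B, while the medians over all features were 0.01 and 0.02. On 26 of the 35 genes both SK-Mel5 shp300 arrays lay below both scrambled arrays (25.1% of all features), and on 3 both lay above (26.3%). In WM983B the corresponding numbers were 10 below (27.8%) and 13 above (30.6%). The plot of changes by role sets both lines side by side.

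**Figure D1:**
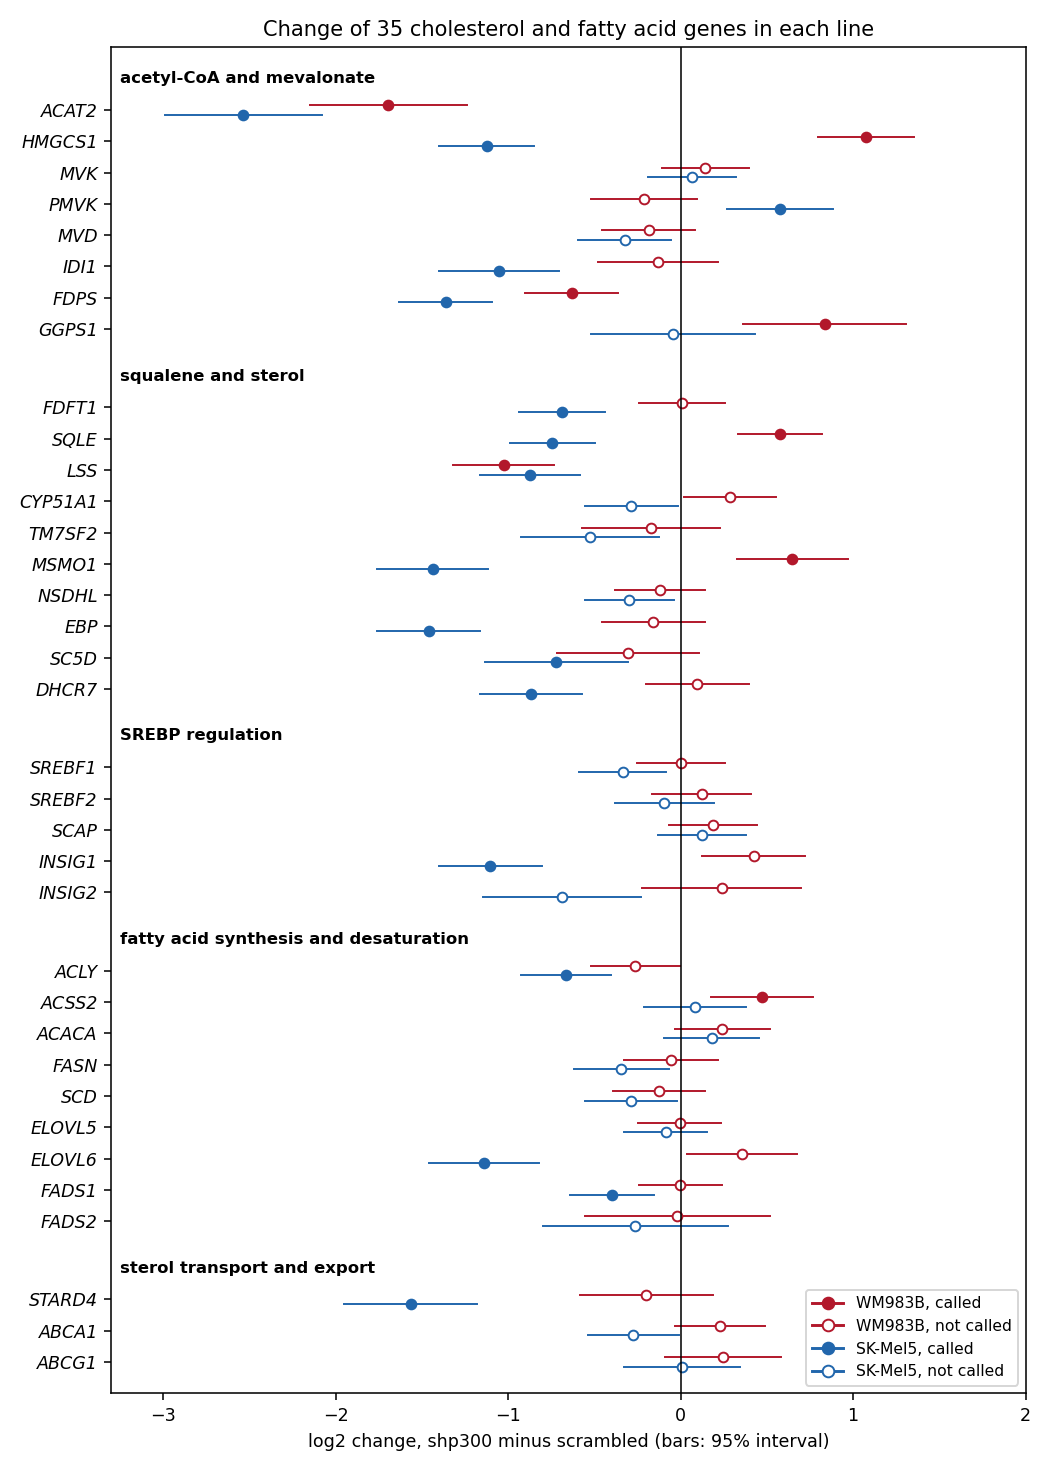
Log2 change (shp300 minus scrambled, horizontal axis) of the 35 measured genes, grouped by role, with bars for the 95% interval of limma. Filled points passed adjusted p under 0.05. Red WM983B points lie on either side of 0, whereas 16 of the 17 filled blue SK-Mel5 points lie below it.

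The 8 genes that carry acetyl-CoA to farnesyl and geranylgeranyl diphosphate moved in different directions within and between the lines. In WM983B 2 rose and 2 fell (10.9% and 11.6% of all features), and in SK-Mel5 1 rose and 4 fell (7.57% and 8.8%). ACAT2, a cytosolic thiolase that joins acetyl-CoA units, had the largest change of the 35 genes in each line. It read 7.53 and 6.91 in WM983B shp300, against 9.03 and 8.80 in WM983B scrambled (change -1.70, 3.24-fold lower, SE 0.197, adjusted p = 0.000746). In SK-Mel5 it read 3.03 and 3.05 with shp300, against 5.51 and 5.64 with scrambled shRNA (change -2.54, 5.80-fold lower, SE 0.197, adjusted p = 0.000194). The groups did not overlap in either line. The SK-Mel5 shp300 arrays put ACAT2 at percentile 50.7 of all features, which was not shown to be above background, so the size of its fall there is uncertain. The ACAT2 gene overlaps TCP1, a chaperonin subunit gene whose own feature changed by -0.59 in WM983B (adjusted p = 0.00513), with -0.37 in SK-Mel5 (adjusted p = 0.0472). It also overlaps SOD2, whose feature changed by -0.48 in WM983B (adjusted p = 0.0117) and 0.02 in SK-Mel5, and SOD2-OT1, which had -0.70 and 0.51 and was not called in either line. The sources used here do not say how probes shared by overlapping genes were assigned.

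HMGCS1, the synthase that makes HMG-CoA, moved in opposite directions. It read 7.96 and 7.86 in WM983B shp300, against 6.94 and 6.74 in WM983B scrambled, and rose by 1.08 (2.11-fold, SE 0.120, adjusted p = 0.00061). In SK-Mel5 it read 5.22 and 5.09 with shp300, against 6.24 and 6.32 with scrambled shRNA, and fell by 1.13 (2.18-fold, adjusted p = 0.000747). All WM983B shp300 values stood above the scrambled ones, and all SK-Mel5 shp300 values below them. The next 3 enzymes act on mevalonate and its phosphates. The kinase genes MVK and PMVK had changes of 0.14 and -0.21 in WM983B and of 0.07 and 0.58 in SK-Mel5, and the decarboxylase gene MVD had -0.18 and -0.32. Of these only the PMVK change in SK-Mel5 passed (6.63 and 6.33 with shp300, against 5.85 and 5.95 with scrambled shRNA, adjusted p = 0.0212). PMVK was the one gene of the 35 that rose in SK-Mel5. Its call was lost without SK-Mel5 scrambled replicate 1 (adjusted p = 0.118) or 2 (0.0691), without SK-Mel5 shp300 replicate 1 (0.0956), and from the 4 arrays of the line alone (0.0859).

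Farther along, IDI1, the isomerase of isopentenyl diphosphate, and FDPS, which makes farnesyl diphosphate, fell in SK-Mel5. IDI1 read 4.75 and 4.67 in SK-Mel5 shp300, against 5.58 and 5.95 in SK-Mel5 scrambled (change -1.05, SE 0.151, adjusted p = 0.00281). In WM983B its values overlapped, at 6.64 and 6.90 with shp300 and 6.91 and 6.89 with scrambled shRNA (change -0.13, 95% interval -0.48 to 0.22). IDI1 overlaps WDR37, which rose by 0.62 in WM983B (adjusted p = 0.0128), and IDI2-AS1, which fell by 0.57 there (adjusted p = 0.0423), and neither was called in SK-Mel5. FDPS fell in both lines without overlap. It read 5.61 and 5.75 in WM983B shp300, against 6.34 and 6.28 in WM983B scrambled (change -0.63, SE 0.116, adjusted p = 0.00611). In SK-Mel5 it read 4.33 and 4.40 with shp300, against 5.64 and 5.81 with scrambled shRNA (change -1.36, 2.57-fold lower, adjusted p = 0.000264). GGPS1, which makes geranylgeranyl diphosphate for protein prenylation rather than sterols, rose in WM983B to 6.63 and 6.29 with shp300, against 5.75 and 5.49 with scrambled shRNA (change 0.83, adjusted p = 0.022). In SK-Mel5 its groups overlapped (change -0.04, 95% interval -0.52 to 0.43). The GGPS1 call in WM983B was lost without scrambled replicate 1 (adjusted p = 0.0565) or 2 (0.137) or shp300 replicate 1 (0.13). GGPS1 overlaps ARID4B, whose feature rose in both lines, with changes of 0.75 in WM983B (adjusted p = 0.00204) and 0.62 in SK-Mel5 (adjusted p = 0.00672).

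**Figure D2:**
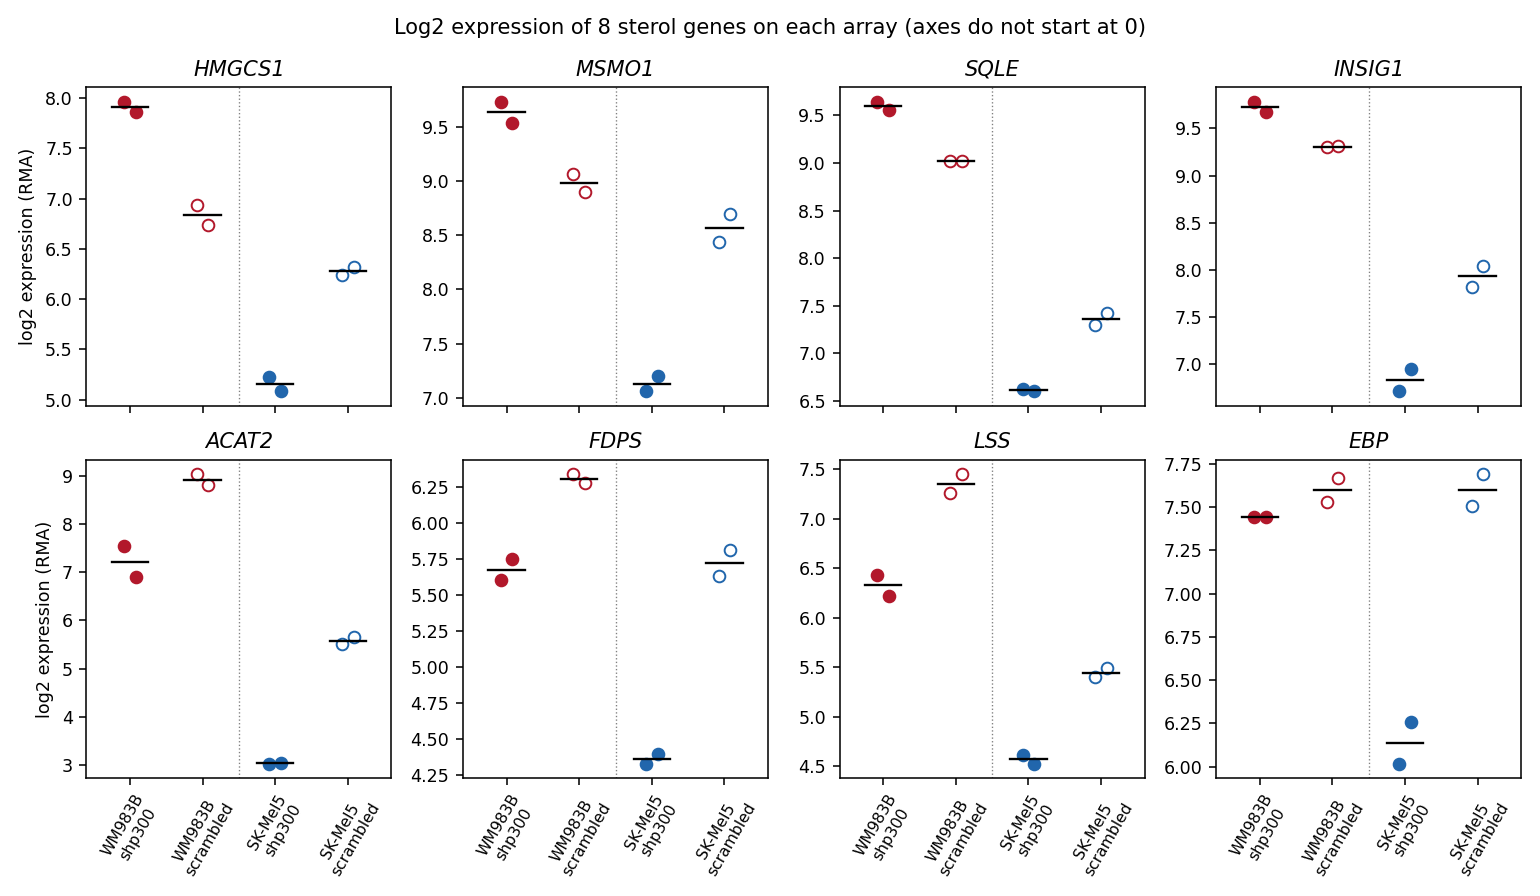
Log2 expression on each array (vertical axis, a separate scale per gene) for 8 sterol genes, with shp300 arrays filled, scrambled arrays open and a line at each group's mean. HMGCS1, MSMO1 and SQLE are higher with shp300 in WM983B and lower in SK-Mel5, whereas ACAT2, FDPS and LSS are lower with shp300 in both (levels are comparable within a line only).

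The branch running through squalene to cholesterol had 10 measured genes. In SK-Mel5 7 of them fell and none rose (8.8% and 7.57% of all features). All 10 had changes below 0 there, as did 11320 of the 23786 features. In WM983B 2 rose and 1 fell (10.9% and 11.6%). FDFT1, squalene synthase, read 8.92 and 8.96 in SK-Mel5 shp300, against 9.58 and 9.68 in SK-Mel5 scrambled (change -0.69, SE 0.108, adjusted p = 0.00429). In WM983B it read 10.98 and 10.85 with shp300, against 10.93 and 10.89 with scrambled shRNA, and the groups overlapped (change 0.01, 95% interval -0.24 to 0.26). SQLE, the squalene epoxidase that catalyses a rate-limiting oxygenation, moved in opposite directions. It read 9.64 and 9.56 in WM983B shp300, against 9.02 and 9.02 in WM983B scrambled (change 0.58, 1.49-fold higher, adjusted p = 0.00602). In SK-Mel5 it read 6.62 and 6.61 with shp300, against 7.30 and 7.42 with scrambled shRNA (change -0.74, 1.67-fold lower, SE 0.106, adjusted p = 0.00269). Neither pair of groups overlapped. LSS, the cyclase that closes the sterol rings, fell in both lines by similar amounts. It read 6.44 and 6.22 in WM983B shp300, against 7.26 and 7.45 in WM983B scrambled (change -1.03, 2.04-fold lower, adjusted p = 0.000962). In SK-Mel5 it read 4.62 and 4.53 with shp300, against 5.40 and 5.49 with scrambled shRNA (change -0.87, 1.83-fold lower, adjusted p = 0.00293). The difference between the LSS changes was -0.15 (95% interval -0.57 to 0.26).

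Past lanosterol, MSMO1, a methyl sterol oxidase, was also called in opposite directions. It read 9.73 and 9.53 in WM983B shp300, against 9.07 and 8.90 in WM983B scrambled (change 0.65, 1.57-fold higher, SE 0.139, adjusted p = 0.0123). In SK-Mel5 it read 7.06 and 7.20 with shp300, against 8.44 and 8.70 with scrambled shRNA (change -1.44, 2.71-fold lower, adjusted p = 0.000476). The WM983B call was lost without scrambled replicate 2 (change 0.56, adjusted p = 0.0882) or shp300 replicate 1 (change 0.55, adjusted p = 0.0759). EBP, the sterol isomerase also known as emopamil binding protein, read 6.02 and 6.26 in SK-Mel5 shp300, against 7.51 and 7.69 in SK-Mel5 scrambled (change -1.46, 2.75-fold lower, adjusted p = 0.000319). In WM983B EBP read 7.44 and 7.44 with shp300, against 7.53 and 7.67 with scrambled shRNA (change -0.16, 95% interval -0.46 to 0.14). DHCR7, the reductase of the last step to cholesterol, fell in SK-Mel5 to 8.97 and 9.07 with shp300, against 9.76 and 10.01 with scrambled shRNA (change -0.87, 1.82-fold lower, SE 0.129, adjusted p = 0.00326). Its WM983B groups overlapped (change 0.10, 95% interval -0.20 to 0.39). SC5D, the lathosterol desaturase, fell by 0.72 in SK-Mel5 (adjusted p = 0.0293) and had a change of -0.30 in WM983B. Its call was lost without SK-Mel5 scrambled replicate 1 (adjusted p = 0.0587) or 2 (0.16), without SK-Mel5 shp300 replicate 1 (0.134), and from the 4 arrays of the line alone (0.0786).

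The demethylase gene CYP51A1 (0.29 in WM983B, -0.28 in SK-Mel5), the reductase gene TM7SF2 (-0.17 and -0.53) and the dehydrogenase gene NSDHL (-0.12 and -0.30) were not called in either line. CYP51A1 was without overlap in opposite directions, at 8.76 and 8.55 in WM983B shp300 against 8.35 and 8.39 in WM983B scrambled, and at 8.09 and 8.01 in SK-Mel5 shp300 against 8.28 and 8.39 in SK-Mel5 scrambled. With trended robust eBayes CYP51A1 passed in both lines (adjusted p = 0.0278 in WM983B and 0.0355 in SK-Mel5). Its difference between lines passed there (0.00858) and when dim features were left out (0.0243). TM7SF2 passed in SK-Mel5 when dim features were left out (0.0333) and with trended robust eBayes (0.0394). NSDHL passed in SK-Mel5 when dim features were left out (0.0443).

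Of the 5 SREBP regulators, none was called in WM983B (22.5% of all features) and 1, INSIG1, fell in SK-Mel5 (8.8%). SREBF2, which encodes the SREBP mainly tied to cholesterol genes, had a change of 0.12 in WM983B (95% interval -0.16 to 0.41) and of -0.09 in SK-Mel5 (-0.38 to 0.19). SREBF1, whose products favour fatty acid genes, had 0.00 in WM983B (-0.25 to 0.26) and -0.34 in SK-Mel5 (-0.59 to -0.08, adjusted p = 0.0803). The SREBF1 change passed in SK-Mel5 when dim features were left out (adjusted p = 0.0248) and with trended robust eBayes (adjusted p = 0.0359). SCAP had 0.19 in WM983B (-0.07 to 0.44) and 0.12 in SK-Mel5 (-0.13 to 0.38). SREBP activity is set largely by cleavage of the protein, which arrays do not measure. INSIG1, a feedback brake that is itself an SREBP target, read 9.78 and 9.67 in WM983B shp300, against 9.30 and 9.31 in WM983B scrambled (change 0.42, SE 0.130, adjusted p = 0.0507). In SK-Mel5 INSIG1 read 6.71 and 6.94 with shp300, against 7.82 and 8.03 with scrambled shRNA (change -1.10, 2.15-fold lower, adjusted p = 0.00114). Its groups did not overlap in either line, on opposite sides. The WM983B change lay at the threshold and passed in 7 of 15 alternative settings. These included leaving out dim features (adjusted p = 0.0185), quantile scaling (0.0396) and cyclic loess scaling (0.0439). Trended robust eBayes (0.00656) and the 4 arrays of the line alone (0.0478) were also among them. With a block for replicate number or after centring, the change did not pass. INSIG2, the paralogue that is less dependent on SREBP, had 0.24 in WM983B and -0.69 in SK-Mel5 (adjusted p = 0.052). In SK-Mel5 the INSIG2 change passed when dim features were left out (adjusted p = 0.021), with cyclic loess scaling (0.0384) and with trended robust eBayes (0.0177). Without SK-Mel5 shp300 replicate 1 it was -0.93.

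Among the 9 genes of fatty acid synthesis, elongation and desaturation, 1 rose and none fell in WM983B (10.9% and 11.6% of all features). In SK-Mel5 3 fell and none rose (8.8% and 7.57%). ELOVL6, the elongase of saturated and monounsaturated C16 chains, read 6.32 and 6.62 in SK-Mel5 shp300, against 7.51 and 7.72 in SK-Mel5 scrambled (change -1.14, 2.21-fold lower, SE 0.138, adjusted p = 0.00128). In WM983B ELOVL6 read 8.31 and 8.22 with shp300, against 7.95 and 7.88 with scrambled shRNA (change 0.36, adjusted p = 0.114). The groups stood apart in both lines, but the WM983B change did not pass. ACLY, which makes cytosolic acetyl-CoA out of citrate, fell in SK-Mel5 to 8.26 and 8.10 with shp300, against 8.85 and 8.84 with scrambled shRNA (change -0.66, adjusted p = 0.00573). Its WM983B change was -0.26 (adjusted p = 0.147). FADS1, the delta-5 desaturase, fell in SK-Mel5 by 0.40 (adjusted p = 0.0363). That call was lost without any one of 6 arrays, namely SK-Mel5 scrambled replicate 1 (adjusted p = 0.124) or 2 (0.15), SK-Mel5 shp300 replicate 1 (0.124) or 2 (0.0861), and WM983B scrambled replicate 1 or 2 (0.064 each), and from the 4 arrays of the line alone (0.0818).

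ACSS2, which makes acetyl-CoA out of acetate, rose in WM983B to 7.75 and 7.58 with shp300, against 7.17 and 7.22 with scrambled shRNA (change 0.47, adjusted p = 0.0331). Leaving out any WM983B array ended the ACSS2 call, with adjusted p = 0.148 and 0.112 for scrambled replicates 1 and 2 and 0.157 and 0.0581 for shp300 replicates 1 and 2. The core enzymes of fatty acid synthesis did not pass in either line in the main fit. The carboxylase gene ACACA had changes of 0.24 in WM983B and 0.18 in SK-Mel5, and the synthase gene FASN had -0.06 and -0.34. FASN passed in SK-Mel5 when dim features were left out (adjusted p = 0.0328) and with trended robust eBayes (adjusted p = 0.0218). The elongase gene ELOVL5 had -0.00 and -0.09. SCD, the delta-9 desaturase, had -0.13 and -0.29, and passed in SK-Mel5 with trended robust eBayes (adjusted p = 0.00972). Its value of 11.75 was the highest of all features on SK-Mel5 scrambled replicate 2, and whether its probes were saturated was not tested. FADS2, the delta-6 desaturase, had -0.02 in WM983B and -0.26 in SK-Mel5 with overlapping groups, at 4.46 and 3.68 in SK-Mel5 shp300 against 4.26 and 4.40 in SK-Mel5 scrambled. Its SK-Mel5 replicates with shp300 differed widely, and the change turned on which was kept. It was -0.65 without shp300 replicate 1 (adjusted p = 0.0404) and 0.13 without shp300 replicate 2 (adjusted p = 0.72).

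Of the 3 transport genes, STARD4, a cytosolic sterol carrier and SREBP target, read 5.48 and 5.15 in SK-Mel5 shp300, against 6.85 and 6.91 in SK-Mel5 scrambled (change -1.56, 2.96-fold lower, SE 0.167, adjusted p = 0.000756). In WM983B its groups overlapped (8.10 and 7.78 with shp300, 8.28 and 8.00 with scrambled shRNA, change -0.20, 95% interval -0.59 to 0.19). The LXR-controlled exporter gene ABCA1 had a change of 0.23 in WM983B (95% interval -0.03 to 0.49) and -0.27 in SK-Mel5 (-0.54 to -0.01, adjusted p = 0.162). The exporter gene ABCG1 stood between percentiles 17.9 and 22.0 in all 4 groups, below the median feature and not shown to be above background, and a change in it could not be judged.

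The difference of the shp300 changes, WM983B minus SK-Mel5, was tested for every feature. It passed for 12 of the 35 genes (9.46% of all features), 11 of them higher in WM983B (5% of all features) and 1, PMVK, lower (4.46%). The sign alone was above 0 on 33 of the 35 genes, against 50.8% of all features, with a median difference of 0.40 against 0.01. The difference was 2.20 for HMGCS1 (95% interval 1.81 to 2.59, adjusted p = 0.000699) and 2.09 for MSMO1 (1.63 to 2.54, adjusted p = 0.00162). It was 1.53 for INSIG1 (adjusted p = 0.00348), 1.50 for ELOVL6 (adjusted p = 0.0045), 1.32 for SQLE (adjusted p = 0.00311) and 1.30 for EBP (adjusted p = 0.00582). These 6 differences passed under every alternative setting that was run. STARD4 (1.36, adjusted p = 0.0124), DHCR7 (0.96, adjusted p = 0.0174), FDFT1 (0.69, adjusted p = 0.0304), FDPS (0.73, adjusted p = 0.0325), IDI1 (0.92, adjusted p = 0.0358) and PMVK (-0.79, adjusted p = 0.0381) passed with all arrays and lost the call under some settings. STARD4 lost it without WM983B scrambled replicate 2 (adjusted p = 0.0579). DHCR7 lost it without SK-Mel5 scrambled replicate 2 (adjusted p = 0.0594), WM983B scrambled replicate 1 (0.0704) or WM983B shp300 replicate 1 (0.0573). FDFT1 and FDPS lost it without any single array (adjusted p between 0.0542 and 0.107 for FDFT1 and between 0.0547 and 0.114 for FDPS). Of the 8 arrays left out in turn, 7 ended the call for PMVK, all but SK-Mel5 shp300 replicate 2 (adjusted p between 0.08 and 0.134). For IDI1 6 did so, all but SK-Mel5 scrambled replicate 1 and WM983B shp300 replicate 1 (adjusted p between 0.0654 and 0.117). Because the lines were apparently normalized apart, each difference compares changes on 2 scales.

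**Figure D3:**
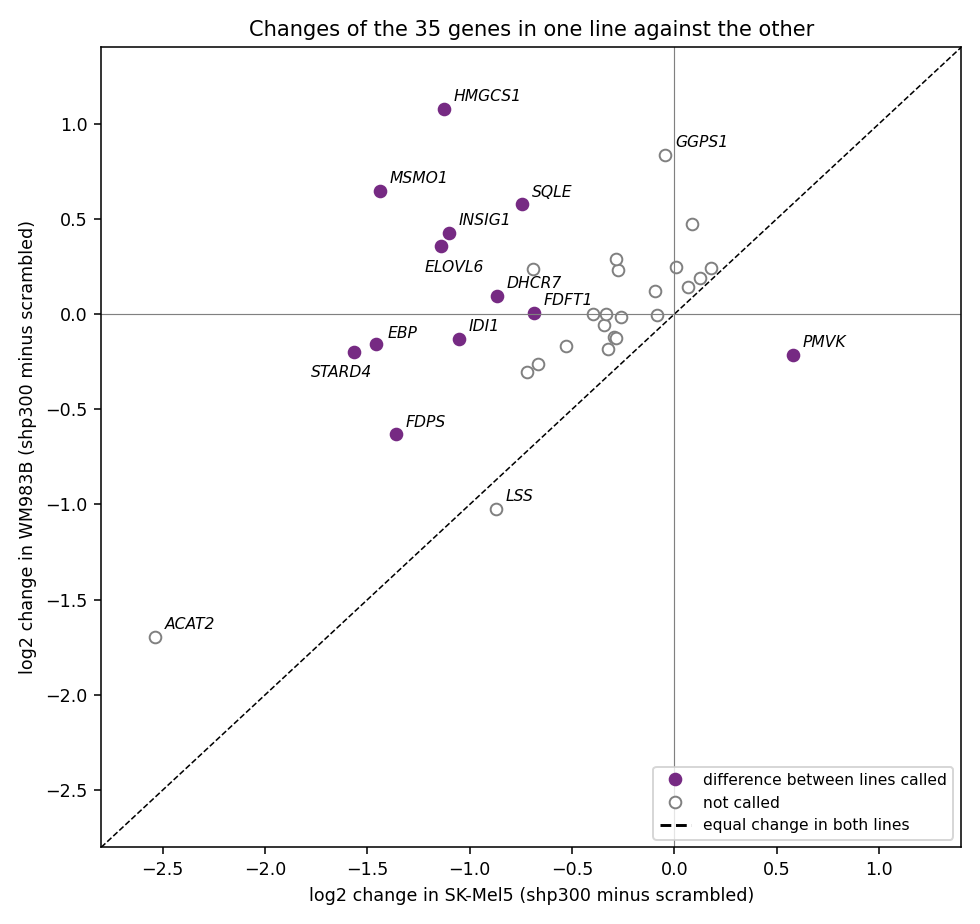
Log2 change in WM983B (vertical) against that in SK-Mel5 (horizontal), both shp300 minus scrambled, 1 point per gene, with the dashed line marking equal change. The 11 filled points above the line and PMVK below it are the genes whose difference between lines passed, while LSS lies close to the line.

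Sorted by both calls, 3 genes (HMGCS1, SQLE and MSMO1) rose in WM983B and fell in SK-Mel5, which 0.441% of all features did. The reverse held for 0 of the 35 genes and 0.425% of all features. A further 3 (ACAT2, FDPS and LSS) fell in both lines, as did 4.91% of all features, and none rose in both (3.03%). Another 10 fell in SK-Mel5 and were not called in WM983B (3.44% of all features). Over both lines together, a model of line and shRNA called 16.8% of all features, with 9.15% that fell and 7.63% that rose. In that model 7 of the 35 genes fell and none rose. These were ACAT2 (-2.12, adjusted p = 0.0002), LSS (-0.95, adjusted p = 0.00034), FDPS (95% interval -1.34 to -0.65, adjusted p = 0.00235), ACLY (-0.46, adjusted p = 0.0198), SC5D (-0.51, adjusted p = 0.0414), STARD4 (-0.88, adjusted p = 0.0467) and EBP (-0.81, adjusted p = 0.0482). The count was 3 when either SK-Mel5 scrambled array or SK-Mel5 shp300 replicate 1 was left out, and 4 without SK-Mel5 shp300 replicate 2. ACAT2, FDPS and LSS passed under every alternative that was run. ACLY, EBP, STARD4 and SC5D each lost the call without one or more arrays, with adjusted p up to 0.0674, 0.123, 0.122 and 0.109 over the settings that ended it. The model fits a single change to both lines, although the difference between lines was called for FDPS, STARD4 and EBP. In WM983B alone ACLY, SC5D, STARD4 and EBP were not called. For HMGCS1, whose lines moved apart, the change over both lines was -0.02 with a 95% interval of -0.88 to 0.83.

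Promoter sequence was examined for the listed genes, whatever their change, in the 250 bases before each gene start annotated by RefSeq (GRCh38.p14). Of the 36 genes, 31 had an entry, and each motif was searched on both strands. CCAAT, the letters bound by NF-Y, a factor that works beside SREBP on many sterol genes, was present in 22 of 31, against 37% of 27305 genes. Among the genes that fell in SK-Mel5 and had an entry, 11 of 13 held it, and among the other measured genes 10 of 17 did. GGGCGG, a GC box of the Sp1 family, was present in 29 of 31 (46.2% of all genes). CACGTG, an E-box that SREBP-1 can also bind, was present in 5 (7.73%), namely INSIG1, SC5D, SCAP, ELOVL5 and ABCA1. The sterol regulatory element written as TCACNCCAC was present in 1, SREBF2 (1.09%). Its shorter form CACNCCAC, which was added after the values were seen and also lies inside the longer one, was present in 7 (5.89%). A match in these letters is a description and not a shown binding site. The 6 stretches printed here end at the base before the gene start. HMGCS1 and MSMO1 were called in opposite directions, INSIG1 and EBP differed between the lines, and FDPS and LSS fell in both. Capitals mark CCAAT or its reverse complement ATTGG and, in INSIG1, the E-box. All run 5′ to 3′ on the gene's own strand.
HMGCS1, chr5:43313413-43313662, minus strand: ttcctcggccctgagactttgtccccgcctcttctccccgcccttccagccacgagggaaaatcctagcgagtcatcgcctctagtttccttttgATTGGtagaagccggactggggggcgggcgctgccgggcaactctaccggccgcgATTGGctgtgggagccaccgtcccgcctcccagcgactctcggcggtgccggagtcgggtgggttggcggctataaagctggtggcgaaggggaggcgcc
MSMO1, chr4:165327419-165327668, plus strand: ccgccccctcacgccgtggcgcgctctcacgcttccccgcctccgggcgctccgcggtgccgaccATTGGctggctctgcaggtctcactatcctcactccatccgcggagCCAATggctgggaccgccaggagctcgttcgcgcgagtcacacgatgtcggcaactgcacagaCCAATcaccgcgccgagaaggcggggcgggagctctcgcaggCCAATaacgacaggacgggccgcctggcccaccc
INSIG1, chr7:155297628-155297877, plus strand: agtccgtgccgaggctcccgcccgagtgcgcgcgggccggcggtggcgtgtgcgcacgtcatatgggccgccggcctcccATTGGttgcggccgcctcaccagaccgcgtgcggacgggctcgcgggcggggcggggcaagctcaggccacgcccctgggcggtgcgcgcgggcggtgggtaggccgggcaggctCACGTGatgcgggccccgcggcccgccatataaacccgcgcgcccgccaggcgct
EBP, chrX:48521558-48521807, plus strand: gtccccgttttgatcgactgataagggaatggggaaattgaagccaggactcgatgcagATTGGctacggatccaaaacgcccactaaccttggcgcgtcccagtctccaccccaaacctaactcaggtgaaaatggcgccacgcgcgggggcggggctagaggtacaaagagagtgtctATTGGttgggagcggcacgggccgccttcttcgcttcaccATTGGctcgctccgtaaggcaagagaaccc
FDPS, chr1:155308616-155308865, plus strand: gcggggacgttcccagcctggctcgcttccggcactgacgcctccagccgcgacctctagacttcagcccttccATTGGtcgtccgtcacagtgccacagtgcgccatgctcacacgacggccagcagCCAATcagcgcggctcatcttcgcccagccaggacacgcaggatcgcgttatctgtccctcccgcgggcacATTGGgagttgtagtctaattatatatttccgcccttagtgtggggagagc
LSS, chr21:46228775-46229024, minus strand: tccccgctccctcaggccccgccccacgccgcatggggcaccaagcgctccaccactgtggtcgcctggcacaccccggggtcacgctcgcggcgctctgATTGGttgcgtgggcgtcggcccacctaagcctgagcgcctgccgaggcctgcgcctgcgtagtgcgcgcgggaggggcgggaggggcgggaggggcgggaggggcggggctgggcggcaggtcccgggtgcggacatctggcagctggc
HMGCS1 held 2 CCAAT matches with first bases at -155 and -100 counted back from the gene start, and both read as ATTGG on the printed strand. MSMO1 held 4, at -185, -139, -76 and -34, and EBP and FDPS held 3 each. INSIG1 and LSS held 1 CCAAT each, at -170 and -150, beside 5 and 6 GC boxes. HMGCS1, MSMO1, FDPS and LSS all held CCAAT and GC boxes in the windows printed. SQLE, also called in opposite directions, and ACAT2, which also fell in both lines, had no entry. Most of the 31 genes held CCAAT (22) and GC boxes (29), so a shared match cannot tell these classes apart.

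Ranks within an array allow the lines to be set side by side without a common scale, as a description with no test. In scrambled cells most of the 35 genes held similar ranks in WM983B and SK-Mel5, as the plot of percentiles shows. FADS2 stood at percentile 98.5 in WM983B scrambled and 62.7 in SK-Mel5 scrambled, the widest gap, and ACAT2 at 94.4 and 75.3. ABCA1 stood at 54.7 in WM983B scrambled and 85.1 in SK-Mel5 scrambled. The SCD feature was among the brightest of the array in all 4 groups, at percentile 99.7 in WM983B scrambled and 99.99 in SK-Mel5 scrambled.

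**Figure D4:**
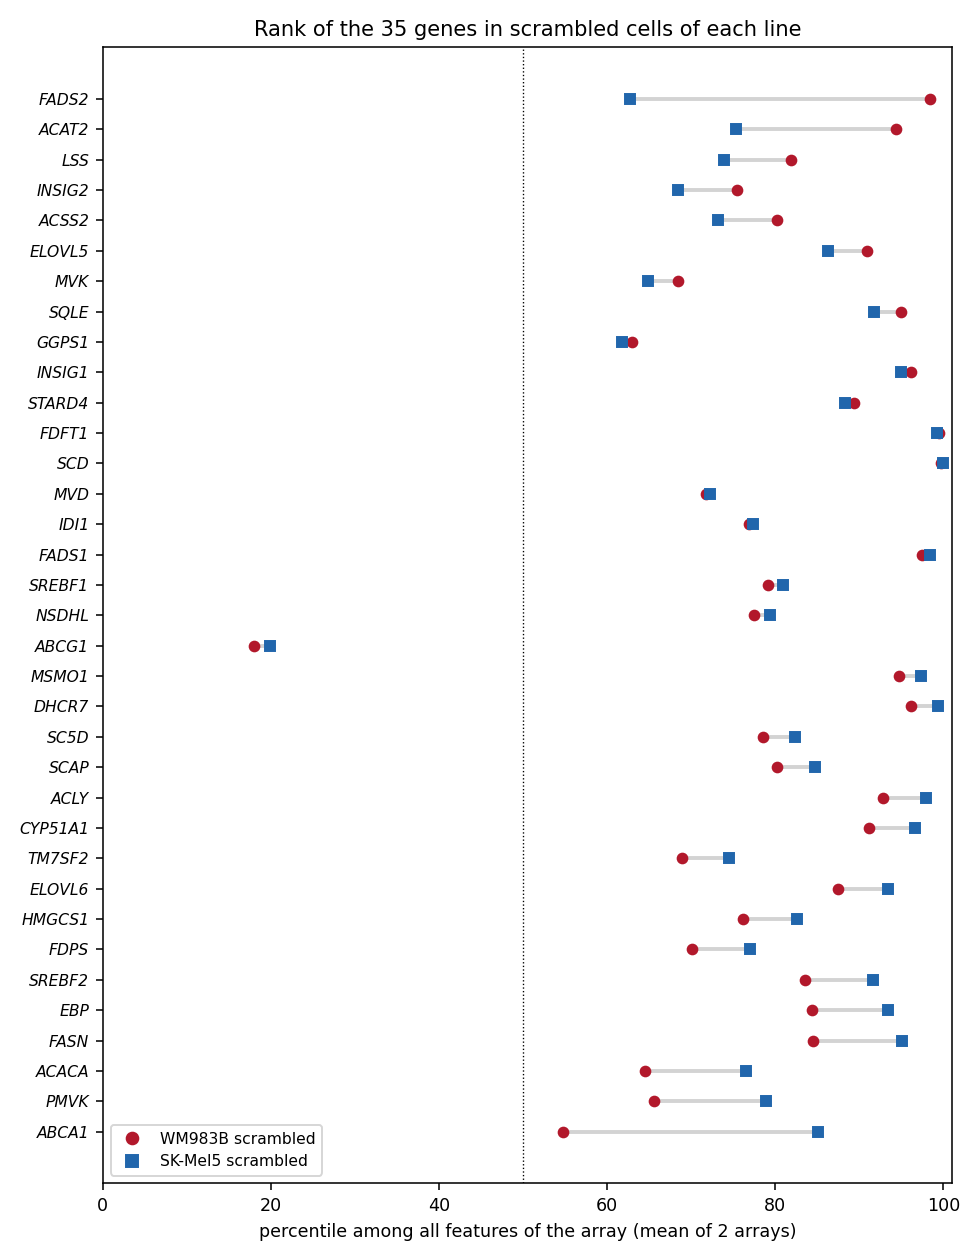
Percentile of each of the 35 genes among the 23786 features of the same array (horizontal axis, mean of 2 scrambled arrays per line), sorted by the gap between lines. FADS2 and ACAT2 rank higher in WM983B and ABCA1 in SK-Mel5, and ABCG1 lies below the median feature in both.

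A further 40 genes of sterol and lipid metabolism had been listed as context, of which 33 were matched to a named feature. In WM983B 5 rose and 8 fell (10.9% and 11.6% of all features), and in SK-Mel5 3 rose and 8 fell (7.57% and 8.8%), with medians of 0.06 and -0.06. TMEM97, a sterol-responsive membrane protein gene, fell in both lines, at 7.65 and 7.41 in WM983B shp300 against 8.71 and 8.69 in WM983B scrambled, and at 6.31 and 6.24 in SK-Mel5 shp300 against 7.64 and 7.64 in SK-Mel5 scrambled. Over both lines it changed by -1.27 (adjusted p = 6.95e-05). The genes of the site-1 and site-2 proteases that cut SREBP were called in directions opposite to each other, in SK-Mel5 and over both lines. MBTPS1 (site 1) rose by 0.78 in WM983B (adjusted p = 0.00304), by 0.44 in SK-Mel5 (adjusted p = 0.0492) and, over both lines, by 0.61 (adjusted p = 0.00566). MBTPS2 (site 2) fell in SK-Mel5 to 7.94 and 7.76 with shp300, against 9.05 and 8.98 with scrambled shRNA (change -1.17, adjusted p = 0.000819), and over both lines by 0.97 (adjusted p = 0.000729).

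APOE, the lipoprotein ligand gene that LXR induces, had the largest change of these 33 in SK-Mel5. It read 3.79 and 3.44 in SK-Mel5 shp300, against 5.71 and 5.78 in SK-Mel5 scrambled (change -2.13, 4.38-fold lower, adjusted p = 0.000233). The SK-Mel5 shp300 arrays put APOE at percentile 56.5 of all features. That level was not shown to be above background, so the size of the fall there is uncertain. In WM983B APOE fell by 0.76 (adjusted p = 0.0168). TECR, a reductase of fatty acid elongation, fell by 0.79 in WM983B and by 0.75 in SK-Mel5, and MID1IP1, an activator of acetyl-CoA carboxylase, fell by 0.66 in WM983B and by 1.10 in SK-Mel5. PNPLA3, a lipase gene induced by SREBP-1c in liver, fell by 0.69 in SK-Mel5 and had a change of 0.35 in WM983B. In WM983B the acyl-CoA synthetase gene ACSL1 fell by 1.18 and the mitochondrial carboxylase gene ACACB by 1.10, while FADS3, a relative of the desaturases, rose by 1.03 (adjusted p = 0.00293).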

How the data were processed

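Total RNA of 8 samples was labelled with the WT Plus kit and hybridised to Affymetrix Human Gene 2.0 ST arrays. The authors deposited RMA values on the log2 scale, 1 for each feature and array, naming affy 1.36.1 and R 2.15.1 per the submitters' processing notes. The probe mapping and genome build are not given in the sources used here. Within a line all arrays had nearly the same distribution, which differed between lines. RMA usually forces such a match, so a change is relative to the other features. All 8 deposited columns were used.

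Feature IDs are Entrez Gene numbers. The platform annotation named 22458 of 23786 features, and 1 further listed gene, FDFT1, was named through RefSeq. No feature was filtered. limma 3.58.1 in R 4.3.3 (lmFit, eBayes) fitted 4 groups to all 8 arrays, and the change over both lines came from a model with terms for line and shRNA. All tests were two-sided, with Benjamini-Hochberg adjustment over all features of each of the 4 comparisons. SE and intervals are limma's moderated ones.

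The genes, lists and motifs were chosen with earlier results of these data known. Genes called in any comparison were described in full, and of the context genes up to 6 with the smallest p per comparison. Results were recomputed with a block for replicate number, without dim features, after centring, quantile or cyclic loess scaling over all arrays, with trended robust eBayes, with a 1.5-fold minimum, on 1 line alone, with the average of the line changes in the 4-group fit, and without each array in turn. The shorter sterol element was added after the values were seen. A lone array left in a group was assumed to vary like the other groups. Same-numbered arrays deviated together at r = 0.003 in WM983B and 0.028 in SK-Mel5, so the numbers were not taken as pairs.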

Additional observations from a re-analysis of the deposited data

Results flagged for a closer look

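The test of the difference between the lines picked out 12 of the 35 genes, where the value is the shp300 change in WM983B minus that in SK-Mel5. It was 2.20 for HMGCS1, 2.09 for MSMO1, 1.53 for INSIG1, 1.50 for ELOVL6, 1.36 for STARD4, 1.32 for SQLE, 1.30 for EBP, 0.96 for DHCR7, 0.92 for IDI1, 0.73 for FDPS, 0.69 for FDFT1 and -0.79 for PMVK. The same limma test passed for EP300 (0.95, adjusted p = 0.0357), whose RNA fell in SK-Mel5 and was not measurably lower in WM983B labelled shp300. p300 protein was not measured here, and why EP300 RNA differed, the sample labels included, was not tested. Line and EP300 change cannot be told apart with 1 line of each kind. Of the context genes named above, the difference passed for APOE (1.37), FADS3 (1.13), PNPLA3 (1.03), ACSL1 (-0.80) and ACACB (-1.08). The groups of 2 arrays are too small for a check of outlying arrays.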

How the results depend on the processing

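With all arrays, called genes numbered 8 (WM983B), 17 (SK-Mel5), 7 (both lines) and 12 (difference). Leaving out 1 array gave 5 to 9, 14 to 18, 3 to 8 and 7 to 9. The WM983B count was 5 when its scrambled replicate 2 or shp300 replicate 1 was left out, and the difference count was 7 without WM983B scrambled replicate 1 or 2 or SK-Mel5 scrambled replicate 2. Averaging the line changes within the 4-group fit, which leaves the difference between lines out of the spread, gave 13 called genes over both lines. With the replicate number as a block, 15 were called in SK-Mel5, 4 over both lines and 8 for the difference, and 8 in WM983B. The block ended the calls of PMVK (adjusted p = 0.0557) and FADS1 (0.0833) in SK-Mel5, of EBP (0.118), ACLY (0.0674) and STARD4 (0.109) over both lines, and of PMVK (0.0897), IDI1 (0.074), FDPS (0.0722) and FDFT1 (0.0701) for the difference. The median change in SK-Mel5 ranged between -0.57 (without SK-Mel5 shp300 replicate 1) and -0.39 over the arrays left out, against -0.40 with all arrays. In WM983B it ranged between -0.01 and 0.06, over both lines between -0.26 and -0.15, and for the difference between 0.35 and 0.50. EP300 ranged between -1.16 and -0.87 in SK-Mel5 and between -0.24 and 0.10 in WM983B. Scaling all arrays together moved the median of all features by at most 0.02. Of 2061 recomputed changes of single genes, 91 lost a call, 46 gained one and 0 turned sign where either setting called the gene. Of 44 calls, 28 passed under every alternative other than the 1.5-fold minimum. That minimum was applied to the counts of called genes only, and these single-gene numbers leave it out. With it, called genes numbered 6 (WM983B), 15 (SK-Mel5), 5 (both lines) and 12 (difference). The rise of SQLE in WM983B (change 0.58), which is among the 28, lay just under it. Leaving out dim features or using trend and robust eBayes raised the SK-Mel5 count to 23 in each case and the difference count to 15 and 17. The cause of these shifts was not tested. The share of all features called was not recomputed under any of these settings, so the recomputed counts have no background beside them. With 2 arrays per group, small changes such as those of SREBF1, FASN and CYP51A1 could not be settled.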

Other observations

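MIR33A and MIR33B, microRNA genes that lie within SREBF2 and SREBF1 and are known to act on ABCA1, had features of their own and were looked at after the values of the host genes were seen. MIR33A had a change of 0.01 in WM983B (adjusted p = 0.963) and -0.06 in SK-Mel5 (adjusted p = 0.854). MIR33B had 0.19 in WM983B (adjusted p = 0.626) and -0.15 in SK-Mel5 (adjusted p = 0.75). These features may also detect host or precursor RNA, and neither was called. CYP51A1-AS1, an antisense transcript overlapping CYP51A1, rose by 0.45 in WM983B (adjusted p = 0.0268) and had a change of -0.09 in SK-Mel5.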
